A study of Mus musculus with 26 samples.

Results

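The 34 genes described here encode inflammatory ligands of microglia and the NF-kB machinery that switches them on and off. They were chosen by symbol, as members of known families, out of 52636 genes in the files. By role they are 8 interleukins, interleukin antagonists and Tnf, 8 CC chemokines, 6 CXC chemokines, 4 NF-kB subunits, 4 inhibitors and feedback genes, and 4 inflammasome components and effectors. All 34 were among the 21371 genes that passed the filter on low counts. They were followed in mouse microglia, the resident macrophages of the brain. The animals differed in Grn, the gene of the secreted lysosomal protein progranulin, and in Tmem106b, the gene of a lysosomal membrane protein. The series asks what less Tmem106b does to microglia when Grn is deficient. In these libraries full loss of Tmem106b was studied with Grn WT alone, and its reduction to 1 copy with Grn KO, Grn HET and Grn WT.

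NF-kB is held in the cytoplasm by I-kappa-B proteins. When Toll-like, interleukin-1 or TNF receptors signal, I-kappa-B-alpha (Nfkbia) is degraded and dimers of p50 (from Nfkb1) and p65 (Rela) enter the nucleus, where they induce cytokine and chemokine genes. The same dimers induce their own brakes, Nfkbia and the ubiquitin-editing enzyme A20 (Tnfaip3), so transcripts of these genes serve as a readout of recent signalling. In microglia many of these transcripts also appear within hours of tissue dissociation, together with immediate early genes.

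The groups were Tmem106b KO Grn WT (4 libraries), Tmem106b HET Grn KO (3), Tmem106b HET Grn HET (3), Tmem106b HET Grn WT (4), Tmem106b WT Grn KO (4), Tmem106b WT Grn HET (5) and Tmem106b WT Grn WT (3). Of the 26 libraries 14 were from females and 12 from males. The dissection was given as Entire for 18 and Hemi for 8, with no further explanation. In Tmem106b HET Grn KO, Tmem106b HET Grn WT and Tmem106b WT Grn WT mice sex and dissection coincide: the Hemi libraries are the males of the Tmem106b HET groups and replicate 2, the 1 female, of Tmem106b WT Grn WT, and the Tmem106b HET Grn HET libraries were all Entire. How the alleles were made, the age of the mice and the way the cells were isolated are not in the labels. Nothing states that libraries came from separate animals, so p-values measure the spread between libraries, part of which may be technical.

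The Grn KO and Tmem106b KO labels were checked first, and the HET labels are not checked separately here. Grn was at most 16.0 CPM (a gene's share of its library's counts, scaled by TMM) in 7 libraries of Grn KO mice and at least 554 CPM in the other 19. Tmem106b was at 24.0, 26.7, 26.4 and 35.7 CPM in Tmem106b KO libraries and 88.6, 68.7 and 75.5 CPM in Tmem106b WT Grn WT libraries. Library totals ran between 37.6 M and 63.7 M counts. Sums over marker genes are given in CPM without the TMM scaling. The 12 microglial markers summed to 25006 to 65714 CPM in 24 libraries. In Tmem106b KO Grn WT replicate 2 they summed to 11117 CPM and in Tmem106b HET Grn KO replicate 3 to 10461 CPM. The same libraries, both Hemi, held the most neuronal marker RNA, 9767 and 8993 CPM summed over 12 genes, against 67.8 to 3646 CPM in the others. Tmem106b KO Grn WT replicate 2 was the lowest library for 22 of the 34 genes and held no read of 8 of them. Some of the results that rest on these libraries are given with and without them, and others only with them. In bulk RNA, fewer cells of a type and less RNA per cell cannot be told apart.

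Many of these genes are textbook NF-kB targets, and the DNA before their start sites was read for the letters of known binding motifs. Of the 34 genes, 26 matched RefSeq promoter windows of GRCm38.p6, which span 250 bases before to 50 bases after a start site. The kappa B letters GGANNTTCC, searched on both strands, were present in 13 of the 32 windows of these genes (40.6%), which belong to 12 genes. The letters occurred in 4.26% of the 32851 windows of this length. A stricter form, with a further G before these letters, is a subset of the first and was present in 7 of the 32 windows (21.9%), of 6 genes, against 1.47% of all windows. The AP-1 letters TGANTCA, which read the same on both strands, were in 8 of the 32 windows (25%, against 7.81% of all windows). The C/EBP letters TTGCNNAA, searched on both strands, were in 3 windows (9.38%, against 10.8%). The CRE letters TGACGTCA were in 0 of the 32 windows, against 1.79% of all windows. A TATA box, TATAAA read in the direction of transcription, was in 9 windows (28.1%, against 8.32%). Some genes have more than 1 window, and such windows can overlap.

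The upstream stretches of 6 genes are shown because they include genes that rose and genes that fell without Grn, with and without a kappa B match, and the most abundant NF-kB inhibitor. They are GRCm38.p6, read 5′ to 3′ on the strand of the gene, and capitals mark the kappa B matches. Positions count back from the RefSeq start site, with -1 the last base before it. The Cxcl2 stretch is printed without the 28 bases next to that site, which lie inside the annotated gene. Its positions still count from the RefSeq start site and not from the end of the printed stretch. The Ptgs2 stretch is chr1:150099781-150100030 on the plus strand, that of Il1b chr2:129371140-129371389 on the minus strand and that of Cxcl2 chr5:90903649-90903870 on the plus strand. That of Il6 is chr5:30012864-30013113 on the plus strand, that of Ccl9 chr11:83578637-83578886 on the minus strand and that of Nfkbia chr12:55492648-55492897 on the minus strand.
Ptgs2: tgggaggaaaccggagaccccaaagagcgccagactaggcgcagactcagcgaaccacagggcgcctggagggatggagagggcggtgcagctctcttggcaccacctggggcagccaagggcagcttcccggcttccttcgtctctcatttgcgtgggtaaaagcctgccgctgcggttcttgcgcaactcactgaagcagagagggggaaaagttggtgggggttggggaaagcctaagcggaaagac
Il1b: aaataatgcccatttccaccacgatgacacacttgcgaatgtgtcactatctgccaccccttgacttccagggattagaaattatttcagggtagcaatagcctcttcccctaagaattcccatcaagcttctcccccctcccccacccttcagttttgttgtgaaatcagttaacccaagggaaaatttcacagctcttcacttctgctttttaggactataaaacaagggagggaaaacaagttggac
Cxcl2: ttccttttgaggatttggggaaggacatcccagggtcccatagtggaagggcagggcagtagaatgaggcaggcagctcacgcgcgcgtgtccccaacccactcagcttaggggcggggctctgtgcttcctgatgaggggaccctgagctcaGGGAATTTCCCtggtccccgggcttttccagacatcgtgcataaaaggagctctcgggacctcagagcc
Il6: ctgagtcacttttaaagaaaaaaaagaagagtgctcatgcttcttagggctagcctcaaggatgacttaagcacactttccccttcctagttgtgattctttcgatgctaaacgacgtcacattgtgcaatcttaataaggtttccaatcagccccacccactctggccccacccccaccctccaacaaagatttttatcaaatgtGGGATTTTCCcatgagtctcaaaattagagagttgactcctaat
Ccl9: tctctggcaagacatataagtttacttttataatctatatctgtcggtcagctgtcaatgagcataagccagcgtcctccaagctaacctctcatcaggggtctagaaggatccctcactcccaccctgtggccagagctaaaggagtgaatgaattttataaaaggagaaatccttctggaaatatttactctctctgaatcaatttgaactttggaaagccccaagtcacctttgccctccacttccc
Nfkbia: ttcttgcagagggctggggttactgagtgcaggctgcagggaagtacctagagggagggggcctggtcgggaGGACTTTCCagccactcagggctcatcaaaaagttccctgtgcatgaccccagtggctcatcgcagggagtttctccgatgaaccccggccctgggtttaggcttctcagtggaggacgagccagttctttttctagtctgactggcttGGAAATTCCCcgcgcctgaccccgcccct
Cxcl2 has the strict form starting at -97 and Il6 at -44, and Nfkbia has the looser letters at -178 and the strict form, on the opposite strand, at -29. Ptgs2 has a C/EBP match at -69, Il1b a TATA box at -31, and Ccl9 an AP-1 match at -53, and none of these 3 has the kappa B letters in its window. A match of letters is a description and not a binding site.

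Levels between genes are compared as the RPKM deposited by the authors, which is per gene length. Over the 26 libraries, the CC chemokines Ccl4 and Ccl3 had the highest median RPKM, 299 and 271. Nfkbia followed at 197, then Ccl6 at 101 and Ccl12 at 90.4 and the cytokine Il1a at 89.96. The adhesion molecule Icam1 had a median of 89.7, the subunit Rela 72.2 and Tnf 44.8 RPKM. Il1b, the secreted partner of Il1a in the interleukin-1 pathway, had a median of 15.8 RPKM but spanned 1.52 to 78.6. Ptgs2, the inducible cyclooxygenase of prostaglandin synthesis, had a median of 1.14 RPKM and reached 16.2. At the low end were Cxcl1 at 0.294, the interferon-gamma-induced chemokine Cxcl9 at 0.187, Il12b, a subunit of interleukin-12 and interleukin-23, at 0.122 and the anti-inflammatory cytokine Il10 at 0.00684 RPKM. Cxcl9 had no read in 7 libraries, Il12b in 10 and Il10 in 13, so fold changes of these 3 genes carry wide errors.

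**Figure D1:**
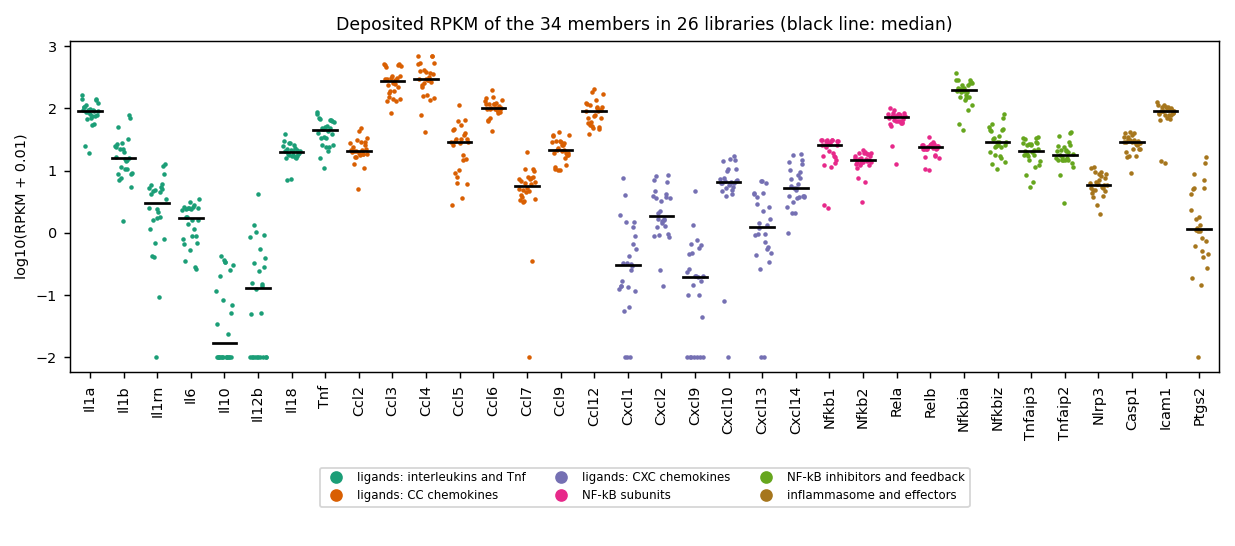
Deposited RPKM of the 34 genes, plotted as log10 of RPKM plus 0.01, with 1 point per library (26 libraries), a black line at the median and colours for the roles. Ccl4, Ccl3 and Nfkbia have the highest medians (299, 271 and 197 RPKM), while Il10, Il12b, Cxcl9 and Cxcl1 lie below 1 RPKM in the median.

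Without Grn, a few of these genes rose and a few fell. Grn KO was set against Grn WT with the Tmem106b WT and HET backgrounds averaged at equal weight (7 Grn KO and 7 Grn WT libraries), by edgeR's quasi-likelihood test with sex and dissection as covariates and Benjamini-Hochberg adjustment over all genes. Ptgs2, Il1b, Cxcl2 and Cxcl14 rose, and Nfkb1, Nlrp3, Il6 and Ccl9 fell, at an adjusted p under 0.05. That is 8 of 34 genes, beside 18.1% of all genes tested in this comparison, where 10.7% were higher and 7.38% lower. The median log2 fold change of the 34 genes was -0.17, with 15 values above and 19 below 0, and that of all genes 0.06. By role, 1 of 8 interleukins and Tnf rose and 1 fell, 1 of 8 CC chemokines fell, 2 of 6 CXC chemokines rose, 1 of 4 NF-kB subunits fell, 0 of 4 inhibitors and feedback genes moved, and 1 of 4 inflammasome and effector genes rose and 1 fell. The count was 1, Ptgs2, without Tmem106b WT Grn WT replicate 2, the only Hemi and only female library of its group, and 5 without Tmem106b HET Grn KO replicate 2, Tmem106b HET Grn WT replicate 2 or 4, or Tmem106b WT Grn KO replicate 3 or 4. With both libraries of low microglial markers left out it was 9, in Entire libraries alone 9, and without covariates 3. The shares of all genes called under these omissions and alternatives are not given here, so these counts are no result about the 34 genes alone.

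The RNA of neuronal and microglial marker genes moved with this comparison. The 12 neuronal markers all passed as higher in Grn KO (median log2 fold change 3.001) and 10 of 12 microglial markers passed as lower (median -1.42). The microglial markers of Tmem106b WT mice summed to 28115 to 36705 CPM in Grn KO and 51179 to 64391 CPM in Grn WT libraries, and in Tmem106b HET mice to 10461 to 36364 CPM in Grn KO and 43448 to 65714 CPM in Grn WT libraries. The neuronal markers summed to 669 to 1111 CPM in Grn KO and 127 to 1734 CPM in Grn WT libraries of Tmem106b WT mice, and to 721 to 8993 CPM in Grn KO and 73.5 to 1694 CPM in Grn WT libraries of Tmem106b HET mice. With the log2 neuronal marker sum as a further covariate, 0 of the 34 genes passed in edgeR, and 0.669% of all genes did. The log2 fold changes of the 8 genes with that covariate were 3.20 for Ptgs2, 1.21 for Il1b, 1.79 for Cxcl2 and 2.13 for Cxcl14, and -0.99 for Nfkb1, -0.58 for Nlrp3, -1.34 for Il6 and -0.51 for Ccl9, each in the same direction as without it. Of the 23 dissociation and immediate early genes 0 passed as higher and 2 as lower (median -0.25). Of the markers of other immune cells, 1 of 6 for neutrophils rose and 1 fell, 0 of 9 for monocytes and 0 of 12 for T and NK cells passed, and 1 of 10 for border macrophages rose and 2 fell. The part of cell content, or of marker RNA per cell, in the results was not tested beyond these values.

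**Figure D2:**
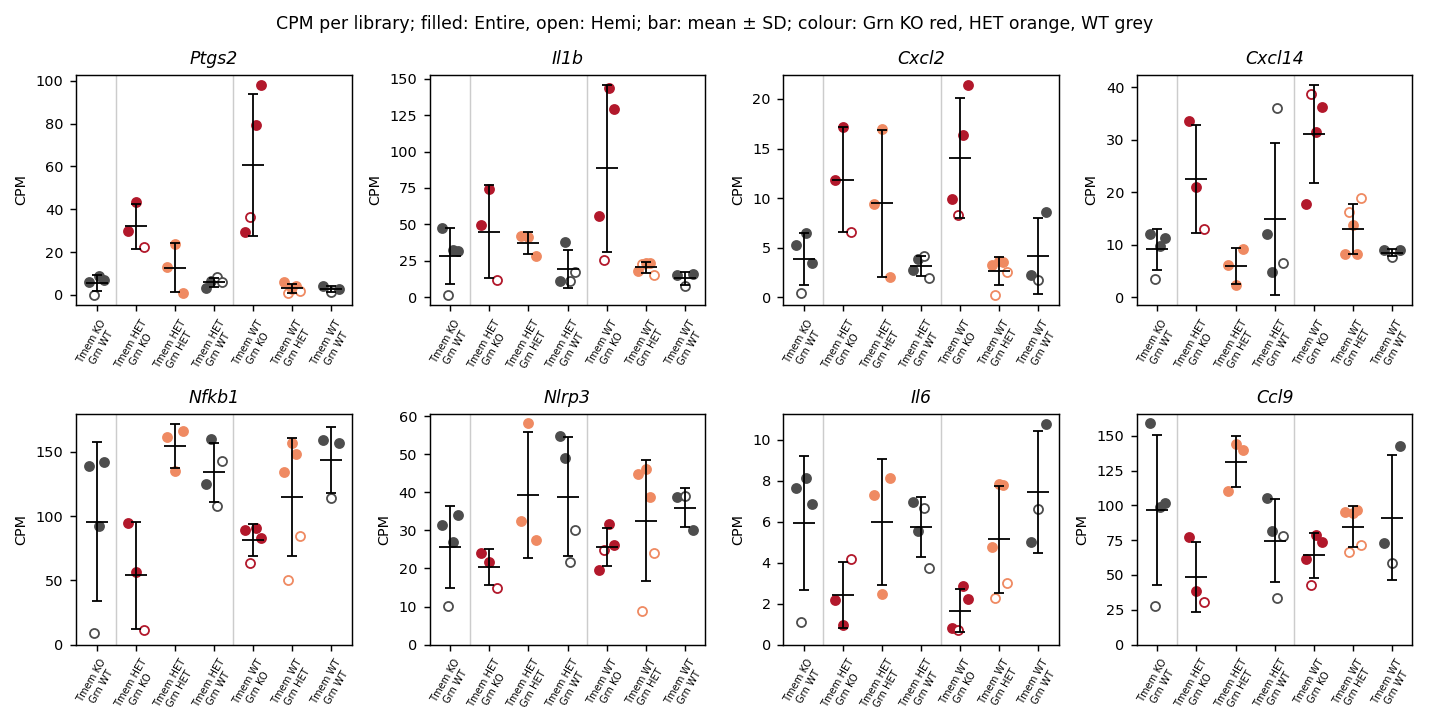
CPM per library of the 8 genes that passed in Grn KO against Grn WT averaged over both Tmem106b backgrounds, in 7 genotype groups, with filled points for Entire and open points for Hemi libraries, bars for mean ± SD and colours for the Grn genotype. Ptgs2 lies at 22.5 to 98.0 CPM across the 7 Grn KO points, and Il6 at 0.718 to 4.17 CPM in them.

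Among the interleukins, Il1b was the one that rose. With Tmem106b WT, Il1b (coordinates here and below are GRCm38, GENCODE: ENSMUSG00000027398, chr2:129364570-129371139, minus strand) was at 55.6, 25.5, 144 and 129 CPM in 4 libraries of Grn KO mice and 15.4, 7.99 and 16.1 CPM in the 3 Grn WT libraries. With Tmem106b HET, it was at 49.3, 74.5 and 11.7 CPM in 3 libraries of Grn KO mice and 11.5, 38.3, 11.1 and 17.2 CPM in the 4 Grn WT libraries. The groups did not overlap in Tmem106b WT mice and overlapped in Tmem106b HET mice, where the Hemi Grn KO library lay within the Grn WT range. Averaged over backgrounds, Il1b was 2.84-fold higher (log2 fold change 1.504, SE 0.44, adjusted p = 0.0213). In Entire libraries alone the log2 fold change was 1.77 (adjusted p = 0.00325), without Tmem106b WT Grn WT replicate 2 the adjusted p was 0.0680, and with the neuronal covariate 0.460. An antisense gene, Il1bos, overlaps Il1b, and the strand used in counting was not given.

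Il6, a cytokine with both inflammatory and trophic actions, went the other way at a low level. It (ENSMUSG00000025746, chr5:30013114-30019981, plus strand) was at 0.830, 0.718, 2.85 and 2.24 CPM in Grn KO and 4.99, 6.62 and 10.7 CPM in Grn WT libraries of Tmem106b WT mice. It was at 2.16, 0.939 and 4.17 CPM in Grn KO and 6.95, 5.52, 6.67 and 3.73 CPM in Grn WT libraries of Tmem106b HET mice. Every Grn KO library lay below every Grn WT library in Tmem106b WT mice, and in Tmem106b HET mice 1 Grn KO library, the Hemi one, lay above the lowest Grn WT library. The average was 3.25-fold lower (log2 fold change -1.70, SE 0.47, adjusted p = 0.0166), or -2.36 on the log2 scale with both libraries of low microglial markers left out. Without Tmem106b WT Grn WT replicate 2 the adjusted p was 0.134, and with the neuronal covariate 0.496.

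The other interleukins and Tnf did not pass in edgeR on average. Tnf had a log2 fold change of 0.28 (95% interval -0.47 to 1.02), Il1a -0.34 (-0.90 to 0.23) and Il18, the other interleukin matured by caspase-1, -0.55 (-1.07 to -0.03). Il1rn, the antagonist of the interleukin-1 receptor, had 0.41 with an interval of -1.45 to 2.26. Il10 had no read in any of the 3 Tmem106b HET Grn KO libraries and 0.297, 0, 0.602 and 0 CPM in the 4 Tmem106b HET Grn WT libraries, so no fold is given.

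Of the CC chemokines, which draw monocytes, T cells and other leukocytes, Ccl9 fell. Ccl9 (ENSMUSG00000019122, chr11:83572919-83578636, minus strand) was at 61.5, 42.5, 78.7 and 73.6 CPM in Grn KO and 72.8, 58.3 and 143 CPM in Grn WT libraries of Tmem106b WT mice, and at 77.2, 38.3 and 30.5 CPM in Grn KO and 105, 81.8, 33.6 and 78.1 CPM in Grn WT libraries of Tmem106b HET mice. The groups overlapped in both backgrounds. On average Ccl9 was 1.64-fold lower (log2 fold change -0.71, SE 0.24, adjusted p = 0.0430). This call sat near the threshold: it was kept in 7 of 26 omissions of a single library and in 5 of 9 other alternatives. Among those that ended it were both libraries of low microglial markers left out (adjusted p = 0.0513) and the dissociation gene sum as covariate (adjusted p = 0.0826).

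Ccl3 and Ccl4, the most abundant of the chemokines, overlapped between Grn KO and Grn WT libraries. Ccl3 was at 298, 194, 511 and 531 CPM in Tmem106b WT Grn KO and 323, 117 and 478 CPM in Tmem106b WT Grn WT libraries. It was at 475, 252 and 98.3 CPM in Tmem106b HET Grn KO and 218, 171, 126 and 167 CPM in Tmem106b HET Grn WT libraries. Ccl4 was at 306, 201, 619.7 and 624 CPM in Tmem106b WT Grn KO and 303, 105 and 449 CPM in Tmem106b WT Grn WT libraries. The groups overlapped for both genes, and in each of these groups a Hemi library was the lowest. Ccl4 in Tmem106b HET mice was at 473, 296 and 49.7 CPM in Grn KO and 175, 197, 114 and 192 CPM in Grn WT libraries, again with a Hemi library lowest in each group. The averaged log2 fold change was 0.26 for Ccl3 (95% interval -0.33 to 0.85) and 0.21 for Ccl4 (-0.66 to 1.09), and neither passed.

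Ccl6 and Ccl12 were among the 6 most abundant genes of the set, and neither passed in edgeR. Ccl6 was at 167, 144, 208 and 187 CPM in Tmem106b WT Grn KO and 162, 159 and 251 CPM in Tmem106b WT Grn WT libraries, and at 188, 103 and 86.0 CPM in Tmem106b HET Grn KO and 205, 179, 112 and 165 CPM in Tmem106b HET Grn WT libraries. Ccl12, a mouse monocyte chemoattractant related to Ccl2, was at 31.1, 31.7, 67.8 and 51.3 CPM in Tmem106b WT Grn KO and 65.4, 60.9 and 116 CPM in Tmem106b WT Grn WT libraries, and at 41.4, 41.2 and 19.8 CPM in Tmem106b HET Grn KO and 72.8, 37.3, 35.3 and 31.9 CPM in Tmem106b HET Grn WT libraries. Both genes overlapped between Grn KO and Grn WT in both backgrounds. The averaged log2 fold change was -0.78 for Ccl12 (adjusted p = 0.0565) and -0.39 for Ccl6 (adjusted p = 0.235). The remaining CC chemokines, Ccl2, Ccl5 and Ccl7, had averaged log2 fold changes of -0.26, 0.78 and -0.11 and adjusted p-values of at least 0.479.

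Among the CXC chemokines, 2 rose. Cxcl2, a neutrophil attractant (ENSMUSG00000058427, chr5:90903871-90905938, plus strand), was at 9.94, 8.30, 16.4 and 21.4 CPM in Grn KO and 2.21, 1.71 and 8.58 CPM in Grn WT libraries of Tmem106b WT mice. Tmem106b HET mice had 11.8, 17.2 and 6.58 CPM in Grn KO and 2.73, 3.89, 4.16 and 1.94 CPM in Grn WT libraries. No overlap was seen in Tmem106b HET mice, and in Tmem106b WT mice 1 Grn WT library lay above the lowest Grn KO library. Cxcl2 was 3.17-fold higher on average (log2 fold change 1.66, SE 0.56, adjusted p = 0.0447), a call kept in 14 of 26 single omissions and 4 of 9 other alternatives. In Entire libraries alone its adjusted p was 0.0708 and with both libraries of low microglial markers left out 0.0570.

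Cxcl14 (ENSMUSG00000021508, chr13:56288643-56296551, minus strand), a chemokine that is also made by neurons and other brain cells, was at 17.7, 38.7, 31.4 and 36.2 CPM in Grn KO and 8.94, 7.62 and 8.87 CPM in Grn WT libraries of Tmem106b WT mice. Tmem106b HET mice had 33.5, 20.9 and 12.96 CPM in Grn KO and 12.1, 4.82, 36.0 and 6.55 CPM in Grn WT libraries. All 4 Grn KO values exceeded the Grn WT values in Tmem106b WT mice, whereas a Hemi Tmem106b HET Grn WT library, at 36.0 CPM, was above its Grn KO group. That library, replicate 3, had the highest oligodendrocyte, astrocyte and endothelial marker sums of the 26 libraries (26664, 1639 and 686 CPM). Their part in its Cxcl14 level was not tested. The averaged difference was 2.62-fold (log2 fold change 1.39, SE 0.47, adjusted p = 0.0462) and the call was kept in 13 of 26 single omissions and 6 of 9 other alternatives. Its log2 fold change was 2.13 with the neuronal marker sum as covariate (adjusted p = 0.136). Cxcl1, Cxcl9, Cxcl10 and Cxcl13 had averaged log2 fold changes of 0.99, 1.23, -0.37 and 0.97, with standard errors of 0.86 to 1.61, and did not pass.

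Of the 4 NF-kB subunits 1, Nfkb1, passed and fell. Nfkb1 (ENSMUSG00000028163, chr3:135584655-135691547, minus strand) was at 89.3, 63.5, 90.7 and 83.2 CPM in Grn KO and 159.6, 114 and 157 CPM in Grn WT libraries of Tmem106b WT mice. Tmem106b HET mice had Nfkb1 at 94.3, 56.2 and 11.04 CPM in Grn KO and 125, 160.3, 108 and 143 CPM in Grn WT libraries. Each Grn KO library lay below each Grn WT library in both backgrounds, and Tmem106b HET Grn KO replicate 3 was the lowest. Nfkb1 was 2.67-fold lower on average (log2 fold change -1.42, SE 0.37, adjusted p = 0.0122). With both libraries of low microglial markers left out the log2 fold change was -0.997 (adjusted p = 0.00242), and in Entire libraries alone -0.90 (adjusted p = 0.00326). The adjusted p was 0.0580 without Tmem106b HET Grn KO replicate 3 alone, 0.0704 without Tmem106b WT Grn WT replicate 2 and 0.443 with the neuronal covariate. The call was also lost without covariates, and was kept in 7 of 9 alternatives other than single omissions. Rela, which encodes p65, had an averaged log2 fold change of -0.74 (adjusted p = 0.0631), and Nfkb2 and Relb, the subunits of the alternative pathway, -0.43 and -0.41 (adjusted p = 0.354 and 0.212).

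The 4 inhibitors and feedback genes did not pass on average. Nfkbiz, an atypical I-kappa-B protein of the nucleus that is needed for Il6 induction in mouse macrophages, was at 231, 226, 392 and 449.6 CPM in Grn KO and 136, 62.5 and 154 CPM in Grn WT libraries of Tmem106b WT mice. Tmem106b HET mice had 245, 258 and 51.3 CPM in Grn KO and 159, 173, 81.1 and 112 CPM in Grn WT libraries. Tnfaip3 was at 196, 155, 169 and 216 CPM in Grn KO and 132, 61.7 and 84.9 CPM in Grn WT libraries of Tmem106b WT mice. The Grn KO libraries of Tmem106b WT mice lay above the Grn WT libraries for both genes, and for Tnfaip2, a TNF-induced gene, without passing in edgeR (adjusted p = 0.198 for Nfkbiz, 0.302 for Tnfaip2 and 0.310 for Tnfaip3).

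In Tmem106b HET mice Tnfaip3 was at 128, 166 and 38.3 CPM in Grn KO and 99.7, 151, 86.9 and 139 CPM in Grn WT libraries, and the groups overlapped. Nfkbia was at 466, 283, 548 and 619.8 CPM in Grn KO and 534, 196 and 508 CPM in Grn WT libraries of Tmem106b WT mice, and at 617, 367 and 84.5 CPM in Grn KO and 282, 409.9, 319 and 368 CPM in Grn WT libraries of Tmem106b HET mice. These groups overlapped too, with the Hemi library the lowest in Tmem106b WT Grn KO, Tmem106b WT Grn WT and Tmem106b HET Grn KO. The averaged log2 fold change of Nfkbia was -0.18 (95% interval -0.85 to 0.49). The median log2 fold change of the 4 genes was 1.03 in Tmem106b WT and -0.26 in Tmem106b HET mice, beside 0.10 and -0.02 over all genes.

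Ptgs2, among the effectors, had the largest averaged fold change of the 8 genes that passed. Ptgs2 (ENSMUSG00000032487, chr1:150100031-150108227, plus strand) was at 29.3, 36.2, 79.4 and 98.0 CPM in Grn KO and 4.14, 1.26 and 2.54 CPM in Grn WT libraries of Tmem106b WT mice, with means of 60.7 ± 33.3 and 2.65 ± 1.44 CPM (SD, n = 4 and 3). Tmem106b HET mice had 29.9, 43.4 and 22.5 CPM in Grn KO and 3.15, 6.23, 8.13 and 5.95 CPM in Grn WT libraries, with means of 32.0 ± 10.6 and 5.86 ± 2.05 CPM (SD, n = 3 and 4). Neither background showed overlap, and both Hemi Grn KO libraries were above the Grn WT libraries too. Ptgs2 was 9.59-fold higher on average (log2 fold change 3.26, SE 0.78, adjusted p = 0.00712). The call was kept in each of 26 single omissions and in 8 of 9 other alternatives. The exception was the neuronal covariate, where the log2 fold change was 3.20 and the adjusted p 0.173.

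Nlrp3, the sensor of the inflammasome that activates caspase-1, fell. It (ENSMUSG00000032691, chr11:59541568-59566956, plus strand) was at 19.6, 24.8, 31.8 and 26.2 CPM in Grn KO and 38.8, 39.0 and 30.2 CPM in Grn WT libraries of Tmem106b WT mice, and at 24.1, 21.8 and 15.0 CPM in Grn KO and 54.8, 49.0, 21.6 and 30.2 CPM in Grn WT libraries of Tmem106b HET mice. The groups overlapped in both backgrounds. Nlrp3 was 1.85-fold lower on average (log2 fold change -0.89, SE 0.24, adjusted p = 0.0155), with an adjusted p of 0.108 without Tmem106b WT Grn WT replicate 2, 0.194 without covariates and 0.532 with the neuronal covariate. Icam1 had an averaged log2 fold change of -0.74 (adjusted p = 0.137) and Casp1, which encodes caspase-1, -0.24 (adjusted p = 0.549).

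Taken in each background alone, fewer genes passed, and the tests for a difference between backgrounds passed for none. In Tmem106b WT mice 0 of 34 genes passed in edgeR, beside 0.576% of all genes (0.426% higher and 0.15% lower), with 10 at an unadjusted p under 0.05 (12.4% of all genes). DESeq2 called 5 genes there, Ptgs2, Il1b, Nfkbiz and Cxcl14 higher and Il6 lower, and limma-voom 0. With both libraries of low microglial markers left out edgeR called 5, Ptgs2, Il1b, Nfkbiz and Tnfaip2 higher and Il6 lower. The shares of all genes called under these alternatives are not given, so these counts are no result about the 34 genes alone. The groups did not overlap for 8 genes, 6 higher and 2 lower in Grn KO, beside 16.2% of all genes (8.78% higher and 7.45% lower). Ptgs2 had a log2 fold change of 4.51 (95% interval 2.01 to 7.01, adjusted p = 0.0971) and Il1b of 2.36 (1.05 to 3.67, adjusted p = 0.0973). Without Tmem106b KO Grn WT replicate 2, which is in neither group but enters the shared estimate of spread, the adjusted p was 0.0102 for Ptgs2 and 0.0129 for Il1b, and without Tmem106b WT Grn KO replicate 2 it was 0.0498 for Il1b.

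In Tmem106b HET mice 2 of 34 genes passed, both lower in Grn KO, beside 14.5% of all genes (8.42% higher and 6.05% lower). At an unadjusted p under 0.05 there were 8, beside 29.8%. Nfkb1 was 3.71-fold lower (log2 fold change -1.89, SE 0.54, adjusted p = 0.0250) and Nlrp3 2.06-fold lower (log2 fold change -1.04, SE 0.34, adjusted p = 0.0471). Nfkb1 did not pass without Tmem106b HET Grn KO replicate 2 or 3 or Tmem106b HET Grn WT replicate 4 (adjusted p = 0.0786, 0.177 and 0.0575), and its log2 fold change was -1.15 with both libraries of low microglial markers left out. Nlrp3 passed in 4 of 26 single omissions. The count was 0 without any 1 of those 3 libraries and 5 without Tmem106b KO Grn WT replicate 2. The shares of all genes called in these omissions are not given, so these counts are no result about the 34 genes alone. The groups did not overlap for 3 genes, Ptgs2 and Cxcl2 higher and Nfkb1 lower, beside 19.2% of all genes (9.85% higher and 9.37% lower). The median log2 fold change of the 34 genes was -0.53 and that of all genes -0.02, while the microglial markers had a median of -1.77 and the neuronal markers of 3.496. In Tmem106b WT mice the corresponding medians were 0.13 for the 34 genes, 0.10 for all genes, -1.07 for microglial and 2.29 for neuronal markers.

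The difference of the Grn KO effect between Tmem106b HET and Tmem106b WT mice was tested as an interaction. In edgeR, DESeq2 or limma-voom 0 of 34 genes passed, beside 0% of all genes in edgeR. At an unadjusted p under 0.05 were 4 genes (4.29% of all genes), Tnfaip3 (-1.50 on the log2 scale, SE 0.56), Il1b (-1.71, SE 0.82), Nfkbiz (-1.15, SE 0.55) and Il12b (-7.19, SE 3.44), each with an adjusted p of 0.872. In all 4 the Grn KO effect was the lower one in Tmem106b HET mice. With both libraries of low microglial markers left out the Tnfaip3 difference was -1.05. The 2 backgrounds share no library, but a single fit estimates the spread for both.

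**Figure D3:**
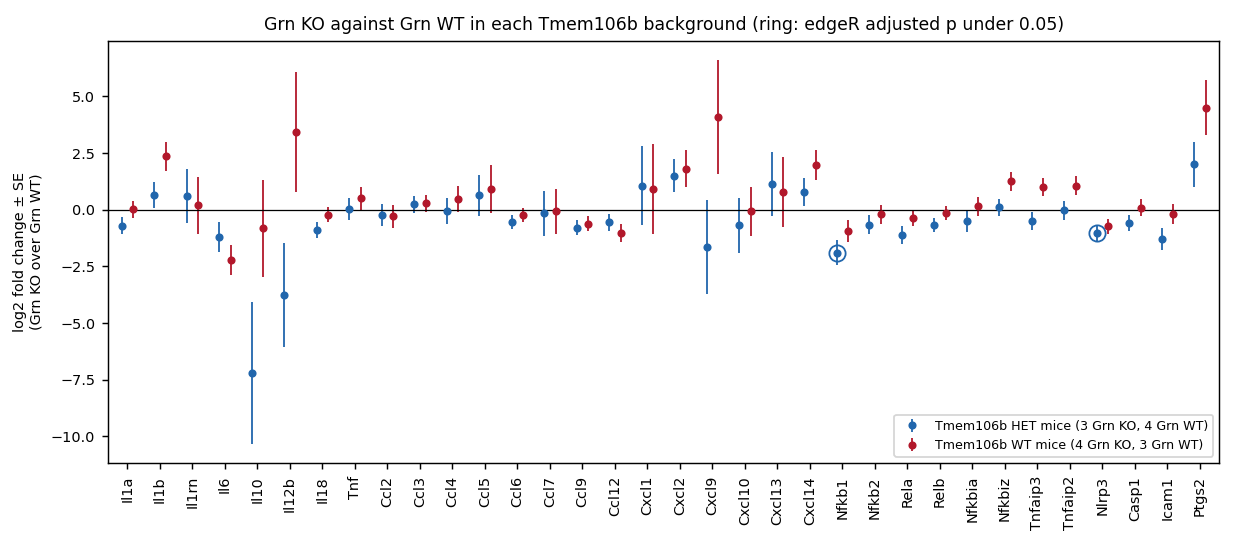
Log2 fold change ± SE of the 34 genes in Grn KO over Grn WT mice, in blue for the Tmem106b HET and in red for the Tmem106b WT background, with a ring where edgeR's adjusted p was under 0.05. The rings are on Nfkb1 and Nlrp3 in Tmem106b HET mice, and Ptgs2 lies at 2.01 in Tmem106b HET and 4.51 in Tmem106b WT mice.

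With loss of 1 Grn copy no gene of the set passed in edgeR, and DESeq2 called 1, Cxcl9, in Tmem106b HET mice. In Tmem106b WT mice (5 Grn HET against 3 Grn WT libraries) 0 of 34 genes passed in edgeR, DESeq2 or limma-voom. In edgeR 0% of all genes passed, and 1 of the 34 had an unadjusted p under 0.05, beside 3.43% of all genes. That gene, Cxcl9, was at 0.676, 0, 2.68, 0.626 and 1.76 CPM in Grn HET and 0.129, 0 and 0.722 CPM in Grn WT libraries, which overlapped. Il1a, with the next smallest p, was at 171, 113, 180.3, 214 and 119.6 CPM in Grn HET and 195, 193 and 308 CPM in Grn WT libraries (log2 fold change -0.64, 95% interval -1.36 to 0.08). No gene of the set separated the groups, beside 2.03% of all genes. Choroid plexus markers summed to 75.5 to 28318 CPM in Grn HET and 1.97 to 10.5 CPM in Grn WT libraries, and their part was not tested. Ptgs2 was at 5.75, 0.631, 2.72, 4.19 and 1.96 CPM in Grn HET libraries and 4.14, 1.26 and 2.54 CPM in Grn WT libraries, and Il1b at 17.97, 22.6, 23.6, 23.7 and 15.6 CPM in Grn HET and 15.4, 7.99 and 16.1 CPM in Grn WT libraries. The 95% interval of the log2 fold change ran from -1.80 to 2.26 for Ptgs2 and from -0.47 to 1.98 for Il1b.

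In Tmem106b HET mice (3 Grn HET against 4 Grn WT libraries) 0 of 34 genes passed in edgeR and limma-voom, beside 0% of all genes in edgeR. At an unadjusted p under 0.05 was 1 (5.54% of all genes), again Cxcl9. It was at 0.822, 0 and 0.346 CPM in Grn HET and 0, 2.44, 1.49 and 0.437 CPM in Grn WT libraries, and DESeq2 called it lower (log2 fold change -6.85, adjusted p = 0.0447). At these few reads the groups overlapped. Cxcl14, with the next smallest p, was at 6.18, 2.31 and 9.21 CPM in Grn HET and 12.1, 4.82, 36.0 and 6.55 CPM in Grn WT libraries (log2 fold change -1.27, SE 0.68, adjusted p = 0.854), and these groups overlapped too. The groups did not overlap for 6 genes, all higher in Grn HET, beside 4.2% of all genes that were higher without overlap. Ccl3 was 1 of them, at 503, 498 and 292 CPM in Grn HET and 218, 171, 126 and 167 CPM in Grn WT libraries. The 3 Grn HET libraries were Entire, 2 of the 4 Grn WT libraries were Hemi, and the dissociation and immediate early genes summed to 5457 to 8776 CPM in Grn HET and 5355 to 6337 CPM in Grn WT libraries. Their part in the separation was not tested, and with dissection in the fit the log2 fold change of Ccl3 was 0.72 (adjusted p = 0.854).

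The interaction of Grn HET with Tmem106b HET passed for 0 of 34 genes in edgeR and limma-voom, beside 0% of all genes in edgeR. An unadjusted p under 0.05 was found for 2 genes (5.6% of all genes). These were Ccl3 (1.32, SE 0.57, adjusted p = 0.876) and Cxcl9 (-11.25, SE 3.98, adjusted p = 0.833). DESeq2 called Cxcl9 (adjusted p = 7.17e-04), whose values in the 4 groups were 0 to 2.68 CPM.

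Neither loss nor reduction of Tmem106b moved a gene of the set past the threshold in edgeR. Tmem106b KO was set against Tmem106b WT with Grn WT (4 and 3 libraries), and 0 of 34 genes passed in edgeR, DESeq2 or limma-voom. In edgeR 0.00468% of all genes passed, which is Tmem106b itself (log2 fold change -1.49, SE 0.22, adjusted p = 0.0275). Of the 34, 0 had an unadjusted p under 0.05, against 11% of all genes, and 0 separated the groups, against 4.6%. Cxcl9 was at 4.83, 0, 14.6 and 0.674 CPM in Tmem106b KO and 0.129, 0 and 0.722 CPM in Tmem106b WT libraries, and Il1a at 221, 33.6, 210.4 and 187 CPM in Tmem106b KO and 195, 193 and 308 CPM in Tmem106b WT libraries. In both genes the groups overlapped, and replicate 2, the Hemi library of low microglial markers, was the lowest of the Tmem106b KO group. Their unadjusted p was 0.0537 each, with a log2 fold change of -0.74 for Il1a (95% interval -1.49 to 0.01). Over 35 alternatives, 26 of them omissions of a single library, the Il1a value ran from -0.97 to -0.35 and passed in 0. Il12b was at 2.52, 0, 8.87 and 0 CPM in Tmem106b KO and 0.977, 0 and 0 CPM in Tmem106b WT libraries, where replicate 3 of Tmem106b KO gave the highest value of all 26 libraries. Ptgs2 was at 5.92, 0, 8.59 and 7.04 CPM in Tmem106b KO libraries, all below the 22.5 CPM that was the lowest value in Grn KO libraries.

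Tmem106b HET was set against Tmem106b WT within each Grn genotype. With Grn WT (4 and 3 libraries) 0 of 34 genes passed in edgeR and limma-voom, beside 0% of all genes in edgeR. Cxcl9 and Ccl12 had an unadjusted p under 0.05 (3.49% of all genes). DESeq2 called Cxcl9, at 0, 2.44, 1.49 and 0.437 CPM in Tmem106b HET and 0.129, 0 and 0.722 CPM in Tmem106b WT libraries (adjusted p = 0.0429). Ccl12 was at 72.8, 37.3, 35.3 and 31.9 CPM in Tmem106b HET and 65.4, 60.9 and 116 CPM in Tmem106b WT libraries (log2 fold change -0.83, SE 0.38, adjusted p = 1), and the groups overlapped in 1 Tmem106b HET library.

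With Grn HET (3 and 5 libraries) 0 of 34 genes passed in edgeR and limma-voom, beside 0% of all genes in edgeR. An unadjusted p under 0.05 was found for 3 (6.79% of all genes), namely Il1a, Ccl3 and Cxcl9. Il1a was at 358, 418 and 246 CPM in Tmem106b HET and 171, 113, 180.3, 214 and 119.6 CPM in Tmem106b WT libraries (log2 fold change 0.87, SE 0.37, adjusted p = 0.685). Ccl3 was at 503, 498 and 292 CPM in Tmem106b HET and 132, 153, 228, 255 and 109 CPM in Tmem106b WT libraries (log2 fold change 0.87, SE 0.39, adjusted p = 0.702). These 2 genes were among 7 that did not overlap, all higher in Tmem106b HET, beside 3.15% of all genes. The dissociation and immediate early genes summed to 5457 to 8776 CPM in Tmem106b HET and 3247 to 5939.9 CPM in Tmem106b WT libraries, and their part was not tested. Cxcl9, called by DESeq2 as lower (adjusted p = 0.0352), was at 0.822, 0 and 0.346 CPM in Tmem106b HET and 0.676, 0, 2.68, 0.626 and 1.76 CPM in Tmem106b WT libraries.

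With Grn KO (3 and 4 libraries) 0 of 34 genes passed in edgeR, DESeq2 or limma-voom, beside 0% of all genes in edgeR. Of the 34 values 31 were lower in Tmem106b HET. Nfkbiz and Tnfaip3 had an unadjusted p under 0.05 (3.79% of all genes). Nfkbiz was at 245, 258 and 51.3 CPM in Tmem106b HET and 231, 226, 392 and 449.6 CPM in Tmem106b WT libraries (log2 fold change -0.90, SE 0.38, adjusted p = 0.918), and Tnfaip3 at 128, 166 and 38.3 CPM in Tmem106b HET and 196, 155, 169 and 216 CPM in Tmem106b WT libraries (log2 fold change -0.86, SE 0.39, adjusted p = 0.918). For both genes the groups overlapped and Tmem106b HET Grn KO replicate 3 was the lowest library. With both libraries of low microglial markers left out the log2 fold change was -0.51 for Nfkbiz and -0.46 for Tnfaip3. Separation without overlap was seen for 1 gene, Nfkb2, named after its values were seen, which was lower (-0.64 on the log2 scale), beside 3.18% of all genes. The median log2 fold change was -0.51 for the 34 genes, -0.66 for the microglial markers and -0.03 over all genes. The comparisons above share control libraries, so their lists are not independent of each other.

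Several of these genes were lower in Hemi libraries. In Hemi against Entire libraries (8 and 18), taken as the dissection term of the same fit, 13 of 34 genes passed as lower and 0 as higher, beside 20.7% of all genes (9.03% lower and 11.7% higher). At an unadjusted p under 0.05 were 24, beside 33.1%. The median log2 fold change of the 34 genes was -0.80 and that of all genes -0.09. The 13 were Ccl3, Ccl4, Ccl6 and Ccl9, Il1a, Il1b and Il12b, Nfkb1 and Rela, Nfkbia, Nfkbiz and Tnfaip3, and Nlrp3. Lowest, median and highest CPM of Ccl3 were 56.5, 121 and 194 in Hemi and 132, 295 and 531 in Entire libraries (log2 fold change -1.17, SE 0.25, adjusted p = 0.00393). For Tnfaip3 they were 22.4, 59.5 and 155 in Hemi and 84.9, 131 and 216 in Entire libraries (log2 fold change -1.06, SE 0.25, adjusted p = 0.00698). Il1a had 33.6, 134 and 207 CPM in Hemi and 171, 227 and 418 CPM in Entire libraries (log2 fold change -0.95, SE 0.24, adjusted p = 0.00877). Ranges overlapped across genotypes for these 3 genes.

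In 6 genotypes with both dissections, 17 of the 34 genes had a lower mean in Hemi than in Entire libraries in each of the 6, beside 11.8% of all genes tested. For 3 genes, Il1a, Ccl6 and Ccl9, every Hemi library lay below every Entire library of its own genotype in all 6, beside 2.52% of all genes. Within several of these genotypes sex changes with dissection. Il1b, Nfkbia and Ccl4 had log2 fold changes of -1.26, -1.08 and -1.31 (SE 0.40, 0.28 and 0.38). Exceptions were Cxcl14 (0.15, SE 0.39), Cxcl13 (0.01, SE 0.98) and Cxcl1 (1.48, SE 1.57), whose values were above 0 without passing. Ptgs2 was at 0, 3.95 and 36.2 CPM in Hemi and 1.04, 6.64 and 98.0 CPM in Entire libraries and did not pass (adjusted p = 0.248).

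**Figure D4:**
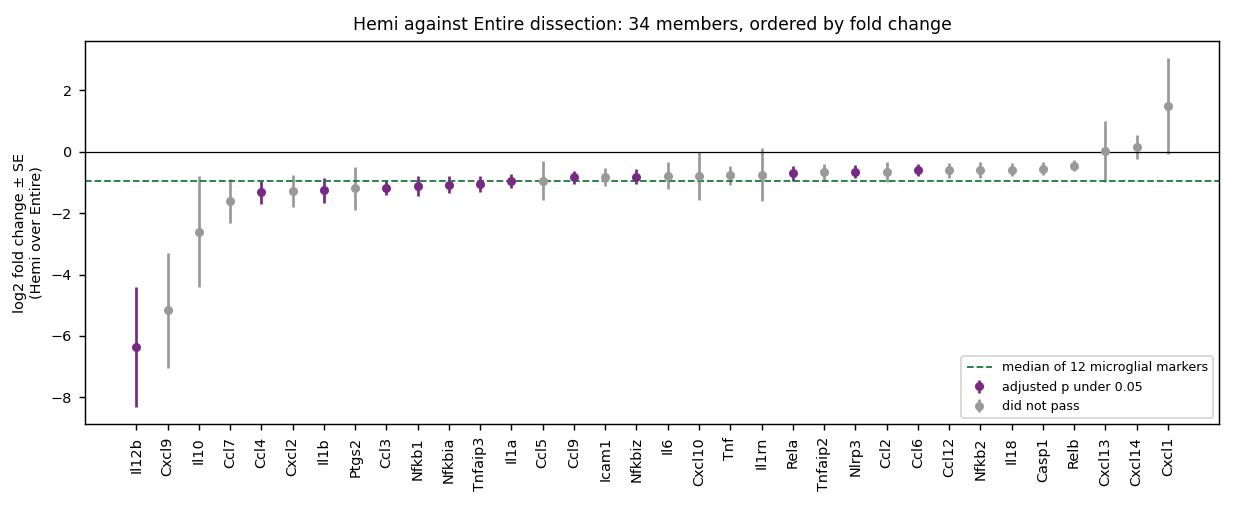
Log2 fold change ± SE of the 34 genes in Hemi over Entire libraries, ordered by value, in purple where edgeR's adjusted p was under 0.05 and in grey elsewhere, with a dashed line at the median of 12 microglial markers. Of the 34 values 31 are below 0, and the line is at -0.94.

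Microglial and neuronal marker RNA and dissociation genes also differed with dissection. Microglial markers fell in Hemi, 11 of 12 passing with a median log2 fold change of -0.94, and neuronal markers rose, 11 of 12 passing with a median of 2.80. Of the 23 dissociation and immediate early genes 10 fell (median -0.63), and their lowest, median and highest sums were 2379, 4061 and 5958 CPM in Hemi and 4357, 5527 and 8776 CPM in Entire libraries. With either the neuronal marker sum or the dissociation gene sum as a further covariate 0 of the 34 genes passed in edgeR, beside 0% and 8.77% of all genes. With both libraries of low microglial markers left out 4 passed, Ccl3, Il1a, Nfkb1 and Nfkbia. Without Tmem106b KO Grn WT replicate 2 the count was 8, and without Tmem106b WT Grn WT replicate 2 it was 4. The shares of all genes called with these libraries left out are not given here, so these counts are no result about the 34 genes alone.

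**Figure D5:**
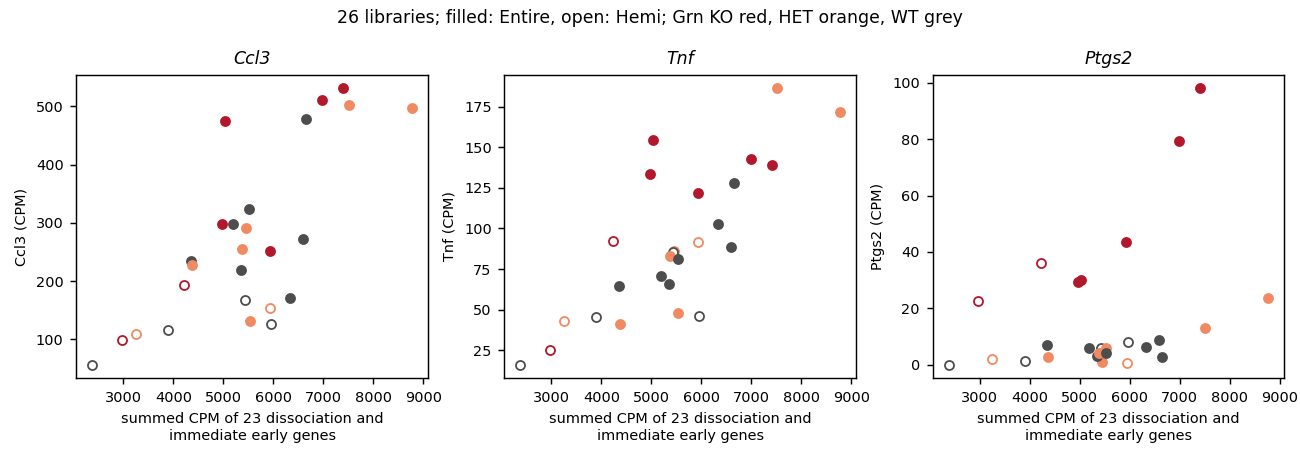
CPM of Ccl3, Tnf and Ptgs2 in each of 26 libraries against the summed CPM of 23 dissociation and immediate early genes, with filled points for Entire, open points for Hemi and colours for the Grn genotype. Ccl3 is lowest where the sum is lowest (56.5 CPM at 2379 CPM), in Tmem106b KO Grn WT replicate 2, whose microglial markers are also low (11117 CPM). The 7 Grn KO libraries are at 22.5 to 98.0 CPM of Ptgs2 across sums of 2971 to 7402 CPM.

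Other genes of the pathway, from lists drawn up by function, are counted here in Grn KO averaged over backgrounds, where 10.7% of all genes tested were called higher and 7.38% lower. Of 21 cytokine and chemokine receptors tested 3 rose and 7 fell. Cxcr4, the receptor of Cxcl12, was at 10.2 ± 3.25 CPM in Grn KO and 0.738 ± 0.346 CPM in Grn WT libraries of Tmem106b WT mice (SD, n = 4 and 3), and rose (log2 fold change 3.26, SE 0.49, adjusted p = 3.17e-04). Il6ra, the receptor of Il6, fell (log2 fold change -1.62, SE 0.29, adjusted p = 0.00108).

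Of 31 genes of NF-kB signalling 0 rose and 10 fell, among them the subunit Rel (log2 fold change -0.998, SE 0.23, adjusted p = 0.00629), the kinase Map3k14 of the alternative pathway (log2 fold change -0.97, SE 0.26, adjusted p = 0.0141) and the adaptor Traf2 (log2 fold change -0.71, SE 0.22, adjusted p = 0.0311). Of 12 Toll-like receptors and co-receptors 0 rose and 4 fell, led by Tlr3, Tlr5 and Tlr4 with log2 fold changes of -1.51, -2.45 and -0.97. Of 10 further inflammasome genes 0 rose and 2 fell, Txnip (-1.24) and the pore-forming Gsdmd (-0.95). Of 24 other chemokines and cytokines 3 rose and 3 fell, including Ccl8 (2.39), Il16 (-1.46) and Ccl24 (-1.53). The microglial markers, at a median of -1.42 in the same comparison, fell with them. With both libraries of low microglial markers left out, 2 receptors rose and 7 fell, and 7 NF-kB signalling and 3 inflammasome genes fell. Of the Toll-like list 1 then rose and 4 fell, and of the other chemokines and cytokines 4 rose and 3 fell. With the neuronal marker sum as a further covariate, 1 receptor passed as higher and 1 as lower, and 0 genes of the other 4 lists passed. Without covariates 2 receptors passed as higher and 4 as lower, and 1 NF-kB signalling gene, 2 Toll-like receptors or co-receptors and 0 inflammasome genes as lower. The shares of all genes called under these alternatives are not given here, so these counts are no result about the lists alone.

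In Tmem106b WT mice alone Cxcr4 was the 1 gene of these lists that passed in Grn KO (log2 fold change 4.13, adjusted p = 0.0109). In Tmem106b HET mice, where 8.42% of all genes were called higher and 6.05% lower, 1 receptor rose and 7 fell, 6 NF-kB signalling genes and 6 Toll-like receptors or co-receptors fell, and 2 inflammasome genes fell, among them Il10ra, Tlr3 and Rel with log2 fold changes of -1.90, -1.83 and -1.64. With both libraries of low microglial markers left out, 1 receptor rose and 7 fell in Tmem106b HET mice. The numbers that fell were then 4 for NF-kB signalling, 2 for Toll-like receptors and co-receptors and 2 for the inflammasome. In Entire libraries alone they were 4, 3 and 2. With the neuronal covariate, and without covariates, 0 genes of the 5 lists passed in Tmem106b HET mice. For these alternatives too the shares of all genes called are not given.

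By position, 10 of the 34 genes lie on chromosome 11, where 8 are the CC chemokines, and 6 on chromosome 5, where 5 are CXC chemokines. Transcripts of close family members can share reads. In the GENCODE transcripts of these genes a shared stretch of 31 bases was found for 2 of 561 pairs of genes, Icam1 with Relb and Il1rn with Nfkb1, and for no pair of chemokines. Icam1 and Tnfaip2 are overlapped by antisense genes, as Il1b is, and without stated strand their reads cannot be told apart. Ccl2, Cxcl10, Il18 and Nfkb2 also overlap protein-coding genes, and Ccl6, Il1a and Nfkb1 overlap other annotated genes.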

How the data were processed

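Poly(A) RNA of mouse microglia was amplified with SMART-Seq v4 and made into libraries with Nextera XT, per the labels' protocols. Reads were aligned with GSNAP to GRCm38, per the submitters' processing notes. The authors deposited whole-number counts per gene and RPKM for each library, per the file headers; the strand used in counting is not given in the sources used here. Counts were tested as deposited with edgeR 4.0.16 (R 4.3.3; TMM, filterByExpr, glmQLFit, glmQLFTest), over 26 libraries with genotype group, sex and dissection in 1 fit, and p-values were adjusted by Benjamini-Hochberg over 21371 genes (threshold 0.05). Marker sums were taken per library total, without TMM. The deposited RPKM served only to compare levels between genes. Intervals are 95% from the fit. Named genes were those called in a genotype comparison, those of the 2 smallest p in each, and the 6 of highest median RPKM; others are named to complete a role. Alternatives were RLE size factors, DESeq2 1.42.0, limma-voom (limma 3.58.1), no filter, no covariates, Entire libraries, and each library left out. No 2 libraries of a group were alike within sampling noise. On simulated counts for Grn KO against Grn WT in Tmem106b WT mice (20808 genes tested), the test recovered 14% of 100 genes changed 2-fold and 56% of 100 changed 4-fold, with 0 false calls among 70. The changed genes excluded those of low level, such as Il10, Il12b and Cxcl9. Unchanged genes had the same mean share in all libraries, without effects of sex, dissection or cell content. The rates hold for those settings and may differ in the real counts. The 34 genes, the marker and pathway lists and the tests were chosen with earlier results of these data known. Promoter windows are from RefSeq (GRCm38.p6), printed without bases inside the annotated gene. 1 pathway gene is not reported here.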

Additional observations from a re-analysis of the deposited data

Results flagged for a closer look

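Among 72 groups of 4 or 5 libraries, formed by 18 named genes and the 4 genotypes of that size, 2 held a library far from the others of its group, where chance flags about 1 in 20 groups. Ccl12 was at 72.8 CPM in Tmem106b HET Grn WT replicate 1, an Entire library, and at 31.9 to 37.3 CPM in the other 3 libraries of the group. Nfkbiz was at 39.6 CPM in Tmem106b KO Grn WT replicate 2, the Hemi library of low microglial markers, and at 128 to 129 CPM in the other 3.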

How the results depend on the processing

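No call of the 34 genes changed direction. In Grn KO averaged over backgrounds, the count of 8 was 3 without covariates and 0 with the neuronal covariate, and 1 to 10 with a library left out. In Tmem106b WT mice the count of 0 was 5 in DESeq2, 2 in Entire libraries, 5 with both libraries of low microglial markers left out, 2 with the dissociation covariate and 0 to 2 with a library left out. In Tmem106b HET mice the count of 2 was 1 with RLE size factors, 5 in DESeq2, 6 in limma-voom, 1 without the filter, 0 without covariates, 3 with both low libraries left out, 0 with the neuronal and 1 with the dissociation covariate, and 0 to 5 with a library left out. For dissection the count of 13 was 20 in DESeq2, 4 with both low libraries left out, 0 with either covariate and 4 to 16 with a library left out. DESeq2 called 1 gene, Cxcl9, in Grn HET and in Tmem106b HET with Grn HET or Grn WT, and in the Grn HET interaction. The other genotype counts of 0 stayed 0 to 0 with a library left out. Counts over all genes in Grn KO averaged over backgrounds were 3863, against 1097 without covariates and 143 with the neuronal covariate. For most alternatives the share of all genes called is not given, so their counts are no result about the 34 genes alone. The causes were not tested. The neuronal, dissociation and low-library alternatives were chosen after seeing the data. Dissection could not be fitted without covariates or in Entire libraries. No paired analysis was possible because replicate numbers are names in accession order. Genes near 0 CPM, such as Il10, Il12b and Cxcl9, are limited by depth.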
